A study of Mus musculus with 32 samples.

Results

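The genes described here are the 5 members of the interleukin-18 (IL-18) axis: the cytokine Il18, its soluble inhibitor Il18bp, the receptor chains Il18r1 and Il18rap, and the protease Casp1. They were taken as every probe set, that is, every group of array probes for a transcript, whose platform symbol is one of these names. This gave 6 probe sets out of 45037 non-control probe sets and 5 of 18193 named genes: 1417932_at for Il18, 1450424_a_at for Il18bp, 1421628_at for Il18r1, 1421291_at and 1456545_at for Il18rap, and 1449265_at for Casp1. RNA of the mouse distal colon was measured on 32 Affymetrix arrays in 4 groups. Treated Myd88 knockout (KO, Myd88-/-) and treated wild-type (WT) mice had 10 arrays each, and untreated KO and untreated WT mice had 6 each. Treated mice were injected intraperitoneally at 6 to 8 weeks of age with azoxymethane (AOM), a colon carcinogen, at 10 mg/kg. After 1 week they drank 2% DSS (dextran sodium sulfate), a compound that damages the gut epithelium, for 3 days and were then killed. Both treated groups carry the disease label colitis. All mice were of the C57 BL6NCr strain, to which the KO line had been backcrossed, and the labels give no age or vehicle for untreated mice. The repeats are described as biological, and the labels do not say that tissue was pooled.

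IL-18 is a cytokine of the IL-1 family that colon epithelial cells make steadily as an inactive precursor. Caspase-1, the product of Casp1, cuts the precursor once it is activated in an inflammasome, a complex of a sensor, the adaptor Pycard and the protease. The mature cytokine binds a receptor made of the chains encoded by Il18r1 and Il18rap, which signals through the adaptor Myd88 and drives interferon-gamma release by T and natural killer cells, while Il18bp encodes a secreted decoy that captures it. The arrays measure RNA, so neither the cutting of the precursor nor the secreted protein was measured.

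Il18 and Casp1 lie on chromosome 9, as does Myd88, the gene removed in the KO mice. Il18bp lies on chromosome 7, and Il18r1 and Il18rap are both on chromosome 1. The promoters of Il18 and Il18bp are shown because these are the members that passed a test in the results that follow. Each is the RefSeq window of 250 bases before to 50 bases after the gene's start in GRCm38.p6, on the gene's own strand, at chr9:50554450-50554749 for Il18 (plus strand) and chr7:102018183-102018482 for Il18bp (minus strand). Capitals mark the match found in the search described after the sequences.
Il18: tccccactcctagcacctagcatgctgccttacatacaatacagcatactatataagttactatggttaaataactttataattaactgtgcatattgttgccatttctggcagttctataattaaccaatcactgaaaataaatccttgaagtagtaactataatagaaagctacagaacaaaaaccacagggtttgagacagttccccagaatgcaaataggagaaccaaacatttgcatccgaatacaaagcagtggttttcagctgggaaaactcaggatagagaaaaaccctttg
Il18bp: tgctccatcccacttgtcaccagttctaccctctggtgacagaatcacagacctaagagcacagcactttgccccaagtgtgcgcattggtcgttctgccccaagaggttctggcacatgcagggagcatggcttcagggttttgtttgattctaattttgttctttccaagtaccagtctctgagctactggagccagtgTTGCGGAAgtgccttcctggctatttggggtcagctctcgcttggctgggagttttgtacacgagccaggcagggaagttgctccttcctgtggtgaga
The windows of all 5 genes were searched on both strands for short core motifs of factors that act in interferon and inflammatory responses. These were the C/EBP core TTGCNNAA and the STAT core TTCNNNGAA, in which N is any base. The Il18bp window held 1 match, TTGCGGAA, to the C/EBP core, which 10.8% of 32851 such mouse windows hold. The STAT core, held by 8.3% of windows, matched at 2 places in 1 of the 3 windows of Il18r1, as TTCTGGGAA and TTCCCAGAA. These letters were not found in the Il18 window shown or in those of Il18rap and Casp1. A match is a description of the sequence and was not tested as a binding site.

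Values are log2 signals after quantile normalization, differences are on the log2 scale ± standard error, and a probe set was called at a limma adjusted p under 0.05 over all 45037 probe sets. The deposited signals end at a floor of 3.322, so a value there is an upper limit, and a difference from it understates the change. Myd88, the check of the genotype labels, averaged 8.00 ± 0.31 in treated KO and 8.46 ± 0.12 in treated WT mice (SD, n = 10 each), and 7.67 ± 0.11 in untreated KO and 8.40 ± 0.11 in untreated WT mice (SD, n = 6 each). The treated KO arrays, from 7.50 to 8.31, overlap the treated WT arrays, from 8.27 to 8.61, while the untreated groups do not overlap. It was lower in KO mice with treatment, by -0.46 ± 0.09 (limma adjusted p = 0.00139), and without it, by -0.73 ± 0.11 (limma adjusted p = 0.00105). The deleted part of Myd88 is not given in the labels, so the probe set may lie outside it. The 14 colon epithelium genes averaged 12.39 in treated KO, 12.17 in treated WT, 12.18 in untreated KO and 12.2 in untreated WT mice. Among them Slc26a3, Car1 and Muc2 had group means between 12.93 and 13.32. Some arrays also carried squamous epithelium and skeletal muscle genes, the mean of 12 squamous genes lying between 4.659 and 8.344 in treated KO, 4.593 and 11.61 in treated WT, 4.356 and 8.625 in untreated KO, and 4.388 and 6.392 in untreated WT mice. These are bulk samples, in which fewer cells of a type and less RNA per cell cannot be told apart.

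Treatment moved the cytokine and its inhibitor upward in KO mice, and left no call on the protease or the receptor chains. Il18 was 1.34-fold and Il18bp 2.35-fold higher in treated than in untreated KO mice, the Il18bp call being lost without either of 2 untreated arrays at the floor. In WT mice none of the 6 probe sets passed, and in neither treatment state was any called between KO and WT. The response in KO minus that in WT mice was not called for any member, and an unequal response of the genotypes was therefore not shown. Of the 6 probe sets, 2 were called between treated and untreated KO mice, both higher, where 13.8% of all probe sets were called and 6.16% were called higher. The median difference of the 6 was 0.20 in KO mice, where 3 of 6 were positive. In WT mice it was 0.27, with 4 of 6 positive. Over all probe sets the median was 0 in both.

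**Figure D1:**
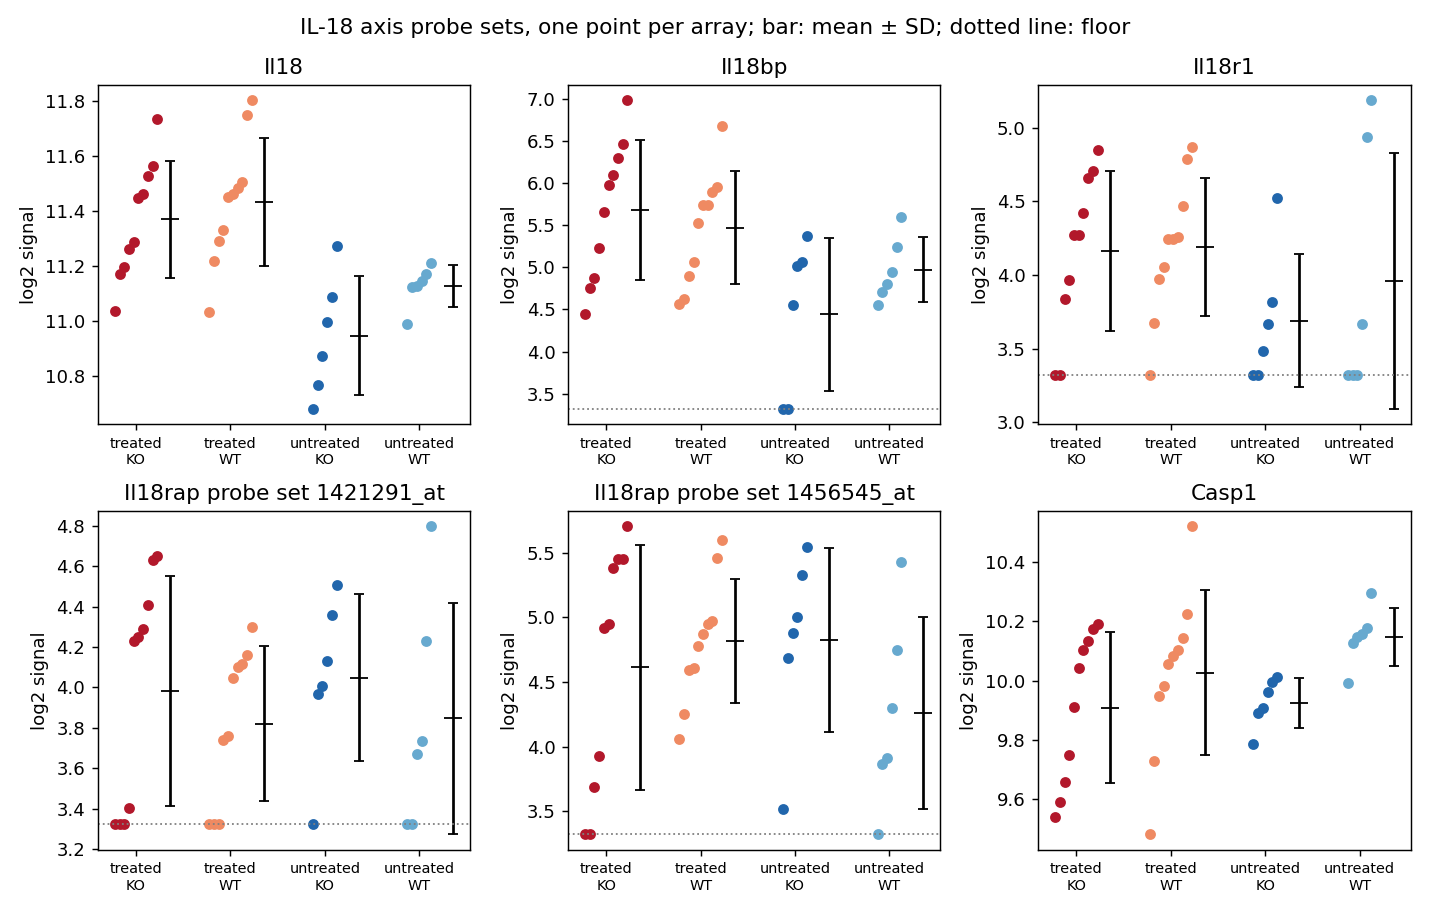
Log2 signal (vertical axis) of each of the 6 probe sets, 1 panel each, in treated KO, treated WT, untreated KO and untreated WT mice, with 1 point per array, sorted by value, and the group mean and SD. For Il18, 6 of 10 treated KO arrays lie above all untreated KO arrays and 9 of 10 treated WT arrays above all untreated WT arrays, while Il18r1 and Il18rap 1421291_at reach the floor of 3.322 in every group.

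Il18 ranged from 11.04 to 11.74 in treated KO mice (median 11.37, n = 10) and from 10.68 to 11.27 in untreated KO mice (median 10.93, n = 6). The groups overlap, with 6 of 10 treated KO arrays above every untreated KO array and none below. Treated KO minus untreated KO was 0.42 ± 0.10 (95% interval 0.21 to 0.64, limma adjusted p = 0.0058). The call held in 15 of 16 alternative settings and whichever of the 32 arrays was left out. The exception was a fit with the mean of 14 colon epithelium genes as a covariate, which gave 0.31 (limma adjusted p = 0.139). That mean lay between 12.22 and 12.56 in treated KO and between 12.07 and 12.24 in untreated KO mice, so it moved with the same comparison. Its averages were 12.39 and 12.18. Of the 14 genes limma called 7 higher and 0 lower, with 17.1% of all genes called. Whether the epithelium share accounts for the Il18 difference was not tested.

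In WT mice the range of Il18 was 11.03 to 11.80 with treatment (median 11.46, n = 10) and 10.99 to 11.21 without (median 11.14, n = 6). Only 1 treated WT array fell within the untreated WT range. Treated WT minus untreated WT was 0.30 ± 0.10 (95% interval 0.09 to 0.52), with an unadjusted p of 0.00652 in limma and an adjusted p of 0.179, so it was not called. Of all probe sets, 0.93% were called in this comparison and 12.5% had an unadjusted limma p under 0.05. Il18 was the single member of the 6 under that p. With array weights the difference was 0.33 and was called (limma adjusted p = 0.0308). The mean of 14 epithelium genes lay between 11.77 and 12.33 in treated WT and between 12.13 and 12.25 in untreated WT mice. Its averages were 12.17 and 12.2. Of the 14 genes limma called 0 higher and 1 lower, with 1.34% of all genes called. With that mean as a covariate the Il18 difference in WT mice was 0.325 (limma adjusted p = 0.111).

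The 2 responses of Il18 differed by 0.12 ± 0.15, KO minus WT (95% interval -0.18 to 0.42, limma adjusted p = 0.847). Averaged over both genotypes, a comparison added after the values were seen, treatment raised Il18 by 0.36 ± 0.07 (95% interval 0.21 to 0.51, 1.29-fold, limma adjusted p = 0.00102). This average was called in all 15 alternative settings and in all 32 fits that leave out 1 array, with values from 0.31 to 0.41. Of all probe sets, 14.9% were called for it. By group mean the order of Il18 from high to low was treated WT at 11.43 ± 0.23, treated KO at 11.37 ± 0.21, untreated WT at 11.13 ± 0.08 and untreated KO at 10.95 ± 0.22 (SD). Neither the treated pair nor the untreated pair was called, in a fit whose spread is shared by the 4 groups. Treated KO was not tested against untreated WT mice.

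Il18bp, the secreted inhibitor, ranged from 4.44 to 6.98 in treated KO mice (median 5.82, n = 10) and from 3.32 to 5.37 in untreated KO mice (median 4.79, n = 6). Of the treated KO arrays, 6 of 10 lay above every untreated KO array. Untreated KO repeats 1 and 2 were at the floor, and the other 4 lay between 4.55 and 5.37. Treated KO minus untreated KO was 1.24 ± 0.37 (95% interval 0.47 to 2.00, limma adjusted p = 0.0245). The call was lost without either of these arrays. Without untreated KO repeat 1 the difference was 1.01 (limma adjusted p = 0.0848), without repeat 2 it was 1.01 (limma adjusted p = 0.0894), and without both it was 0.67 (limma adjusted p = 0.318). It was also not called in a fit of the KO groups alone (limma adjusted p = 0.1) or with an RNA integrity measure, the gap between control probe sets at the 3' and 5' ends, as a covariate (1.04, limma adjusted p = 0.0506).

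Immune cell marker means were higher on average in treated than in untreated KO mice, with overlapping ranges. The treated and untreated KO averages were 8.16 and 7.757 (macrophage), 4.27 and 3.961 (lymphocyte) and 4.705 and 3.971 (neutrophil). Between these groups limma called 1 of 11 macrophage, 1 of 15 lymphocyte and 1 of 6 neutrophil genes, with 17.1% of all genes called. In WT mice, where Il18bp was not called, the treated and untreated averages were 8.191 and 7.775 (macrophage), 4.272 and 4.255 (lymphocyte) and 4.766 and 4.162 (neutrophil). The mean of 11 macrophage genes lay between 7.248 and 9.26 in treated KO and between 7.585 and 8.012 in untreated KO mice, and that of 15 lymphocyte genes between 3.925 and 4.861 and between 3.792 and 4.081 in the same order of groups. The mean of 6 neutrophil genes lay between 4.052 and 5.751 in treated KO and between 3.692 and 4.215 in untreated KO mice. As a covariate the macrophage mean gave an Il18bp difference of 0.92 (limma adjusted p = 0.113), the lymphocyte mean 0.91 (limma adjusted p = 0.184) and the epithelium mean 1.04 (limma adjusted p = 0.184). The part of these cells in the result was not tested.

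WT mice gave Il18bp values of 4.56 to 6.68 with treatment (median 5.63, n = 10) and 4.55 to 5.59 without (median 4.87, n = 6). Of the treated WT arrays, 5 of 10 lay above every untreated WT array. Treated WT minus untreated WT was 0.50 ± 0.37 (95% interval -0.27 to 1.26, limma adjusted p = 0.657). The responses differed by 0.74 ± 0.53, KO minus WT (95% interval -0.34 to 1.82, limma adjusted p = 0.67). Averaged over genotypes, treatment raised Il18bp by 0.87 ± 0.26 (1.82-fold, limma adjusted p = 0.0244). Without untreated KO repeats 1 and 2 that average was 0.59 (limma adjusted p = 0.146).

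**Figure D2:**
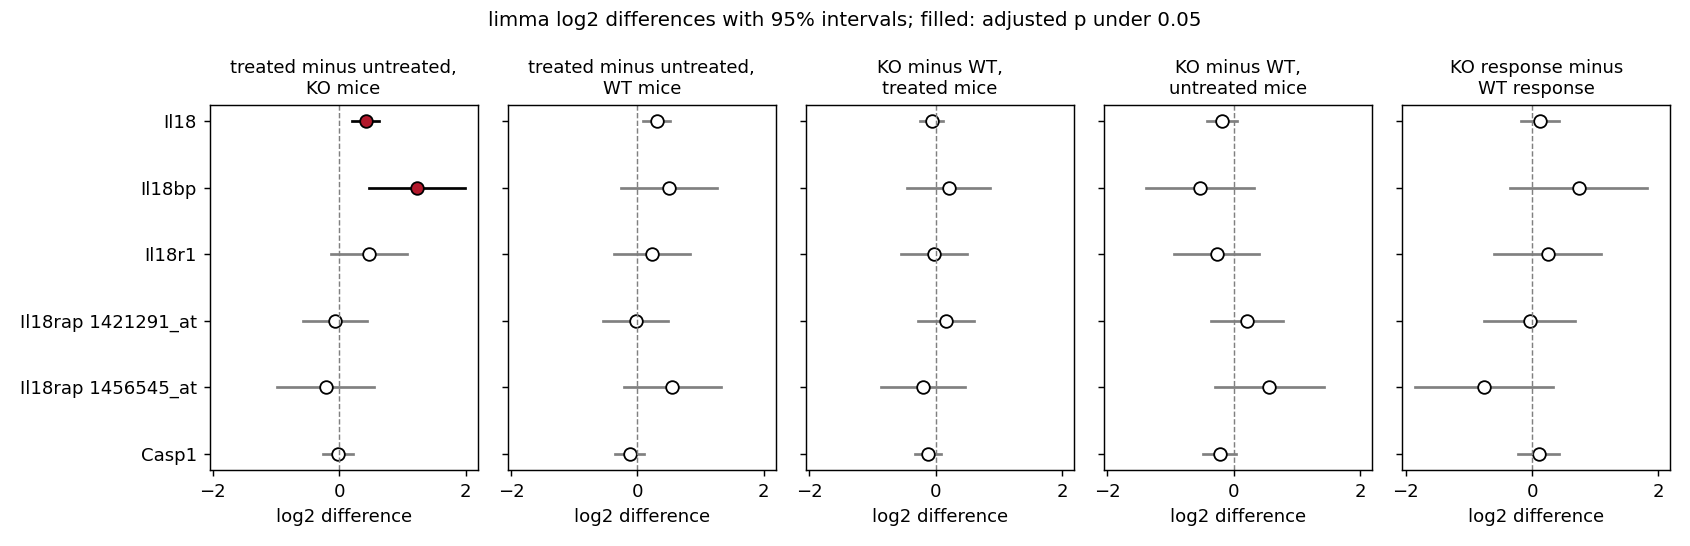
Log2 differences (horizontal axis) of the 6 probe sets in the comparisons of the 4 groups and in the difference of the responses, with 95% intervals. Filled points mark an adjusted p under 0.05, which Il18 and Il18bp reach between treated and untreated KO mice, at 0.42 and 1.24.

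Il18r1, the chain that binds the cytokine, was dim. It ranged from 3.32 to 4.85 in treated KO (median 4.27), 3.32 to 4.86 in treated WT (median 4.24), 3.32 to 4.52 in untreated KO (median 3.57) and 3.32 to 5.18 in untreated WT mice (median 3.50). The 4 groups overlap throughout, and 2, 1, 2 and 3 of their arrays were at the floor. Treated minus untreated was 0.47 ± 0.30 in KO (limma adjusted p = 0.324) and 0.23 ± 0.30 in WT mice (limma adjusted p = 0.852). The 95% interval of the KO difference ran from -0.13 to 1.08.

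Il18rap, the accessory chain needed for signalling, was measured by 2 probe sets. Their deviations from group means were only weakly related (r = 0.30 over 32 arrays). The first, 1421291_at, ranged from 3.32 to 4.65 in treated KO, 3.32 to 4.30 in treated WT, 3.32 to 4.51 in untreated KO and 3.32 to 4.80 in untreated WT mice. Its treated minus untreated difference was -0.07 ± 0.25 in KO and -0.03 ± 0.25 in WT mice. All 4 groups reach the floor, with 3, 3, 1 and 2 arrays on it.

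The second Il18rap probe set, 1456545_at, ranged from 3.32 to 5.71 in treated KO (median 4.93), 4.06 to 5.60 in treated WT (median 4.83), 3.51 to 5.55 in untreated KO (median 4.94) and 3.32 to 5.43 in untreated WT mice (median 4.11). Its treated minus untreated difference was -0.21 ± 0.38 in KO and 0.55 ± 0.38 in WT mice (limma adjusted p = 0.8 and 0.603). The difference of the responses was -0.77 ± 0.53 (95% interval -1.86 to 0.32, limma adjusted p = 0.658). The groups overlap, and neither probe set was called in any comparison.

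Casp1, the protease that cuts the IL-18 precursor, ranged from 9.54 to 10.19 in treated KO (median 9.98), 9.48 to 10.52 in treated WT (median 10.07), 9.78 to 10.01 in untreated KO (median 9.93) and 9.99 to 10.30 in untreated WT mice (median 10.15). Treated arrays spread to both sides of untreated ones, with 5 of 10 treated KO arrays above all untreated KO arrays and 4 below all of them. The SD was 0.25 in treated KO and 0.28 in treated WT mice, against 0.08 in untreated KO and 0.10 in untreated WT mice. Treated minus untreated was -0.02 ± 0.11 in KO (95% interval -0.25 to 0.22, limma adjusted p = 0.99) and -0.12 ± 0.11 in WT mice (95% interval -0.35 to 0.11, limma adjusted p = 0.75). The difference of SDs was not tested.

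Between genotypes, KO minus WT in treated mice gave -0.06 ± 0.09 for Il18 (95% interval -0.25 to 0.12, limma adjusted p = 0.777). The value was 0.03 on the values as deposited and 0.12 with arrays centred on their medians, so its sign depends on the scaling. For Casp1 it was -0.12 ± 0.10 (95% interval -0.32 to 0.08, limma adjusted p = 0.541), or 0.01 with median centring. Il18bp gave 0.21 ± 0.32, Il18r1 -0.03 ± 0.26, and the Il18rap probe sets 0.16 ± 0.22 and -0.20 ± 0.33. By limma, 0 of 6 were called and 0 had an unadjusted p under 0.05, where 9.3% of all probe sets were called and 22% lay under that p.

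In untreated mice 4 of 6 KO arrays lay below all WT arrays for Casp1. Its difference, -0.22 ± 0.13 (95% interval -0.48 to 0.03, limma adjusted p = 0.789), was not called. The fit shares a single spread over the 4 groups. For Casp1 the SD was 0.08 and 0.10 in untreated KO and WT mice, against 0.25 and 0.28 in treated ones. Its standard error here is therefore not that of the untreated arrays alone. Casp1 was called in 0 of 16 alternative settings, and the lowest limma adjusted p of any alternative fit was 0.199. For Il18 the difference was -0.18 ± 0.12 (95% interval -0.42 to 0.06, limma adjusted p = 0.804), with 3 of 6 KO arrays below all WT arrays. The other members gave -0.53 ± 0.42 for Il18bp, -0.27 ± 0.33 for Il18r1, and 0.20 ± 0.28 and 0.56 ± 0.42 for Il18rap. None had an unadjusted p under 0.05 in limma (0 of 6), where 6.96% of all probe sets lay under it and 0.109% were called. Averaged over treated and untreated mice, again added after the values were seen, Casp1 gave -0.17 ± 0.08, with an unadjusted limma p of 0.0407 and an adjusted p of 0.271. For that average 2.85% of all probe sets were called and no member. An unadjusted p under 0.05 was reached by 1 of 6 members and by 16.8% of all probe sets. For the difference of the responses 0.0222% were called and no member was. There 0 of 6 had an unadjusted p under 0.05, where 10.3% of all probe sets lay under it.

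Il18 and Casp1 varied together between arrays of the same group, though only weakly in untreated WT mice. Their deviations from group means gave Pearson's r = 0.634 and Spearman's rho = 0.685 over 32 arrays, and r = 0.584 without the 2 arrays farthest from the Il18 median. By group r was 0.718 in treated KO, 0.661 in treated WT, 0.599 in untreated KO and 0.187 in untreated WT mice. The points share arrays and their scaling, and the values are a description with no test. Genes outside the axis gave a higher r, up to 0.745 with Il18 and 0.849 with Casp1. Of the other 14 pairs of member probe sets, the highest r was 0.442, between Il18bp and Il18rap 1456545_at.

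**Figure D3:**
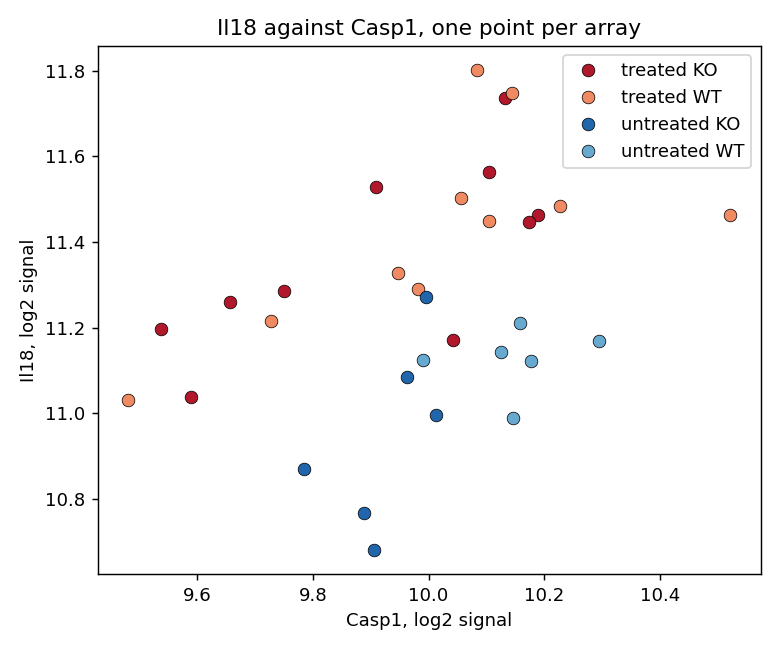
Il18 (vertical axis) against Casp1 (horizontal axis), both log2 signal, 1 point per array, coloured by group. High Il18 goes with high Casp1 among treated KO (r = 0.718) and treated WT arrays (r = 0.661), and the untreated arrays overlap the lower treated ones on the Il18 axis.

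The genes whose deviations from the group means were most like each member's were sought among 22855 probe sets with 1 symbol and a mean above the 40th percentile. For Il18 they were Cilk1 (r = 0.745), Eif2s2 (r = 0.724) and Mnt (r = 0.711). For Casp1 they were Cadps2 (r = 0.849), Slc52a3 (r = 0.836), which encodes a riboflavin transporter, and Lrrc19 (r = 0.835). Il18bp was most like Selenoi (r = 0.756), Capg (r = 0.688) and Ubd (r = 0.685). Il18rap 1456545_at was most like B2m (r = 0.776), the light chain of MHC class I, the interferon-induced GTPase gene Gbp6 (r = 0.764) and Dusp3 (r = 0.738). The other Il18rap probe set gave Chd8 (r = 0.704), Chd4 (r = 0.696) and Dgkd (r = 0.692), and shared none of these. Il18r1 gave Pitpnc1 (r = 0.781), Atp2a2 (r = 0.64) and Inhbb (r = 0.608). All are over 32 arrays that share their scaling.

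Around the members, the inflammasome list held 15 measured genes of 19. Between treated and untreated KO mice 4 rose and 1 fell, where 17.1% of 18193 genes with 1 probe set each were called. Gsdmd, whose product forms membrane pores once caspase-1 has cut it, averaged 10.21 in treated KO and 9.36 in untreated KO mice (0.85 ± 0.18, limma adjusted p = 0.00176). Nlrp3, a sensor, differed by 0.84 ± 0.24 (limma adjusted p = 0.0173). Casp8, a protease that can also cut the IL-18 precursor, differed by 0.66 ± 0.13 (limma adjusted p = 0.000827), and Mefv, the gene of the sensor pyrin, by 0.46 ± 0.14 (limma adjusted p = 0.0284). Naip6, a sensor gene of a family of near-identical copies that probes may share, fell by 0.47 on the log2 scale (limma adjusted p = 0.00375), a call lost with arrays centred on their medians. The list's median was 0.21, against 0 over all genes. Without untreated KO repeats 1 and 2, 2 rose and 1 fell, and with the epithelium mean as a covariate 1 rose and 1 fell. Pycard, the adaptor, gave -0.31 ± 0.12 and was not called, nor was Txnip, the brightest of the list (-0.17 ± 0.10). In treated mice Gsdmd (0.63 ± 0.16, limma adjusted p = 0.00933) and Casp8 (0.55 ± 0.11, limma adjusted p = 0.00241) were higher in KO than in WT mice, 2 of 15, with 11.6% of all genes called. With the epithelium mean as a covariate neither was called.

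Below the receptor, 14 of 16 listed signalling genes were measured. Between treated and untreated KO mice 5 rose and none fell, with 17.1% of all genes called. They were Irak3 (0.44 ± 0.14, limma adjusted p = 0.0312), which encodes an inhibitor of the pathway, the kinase genes Ikbkb (0.38 ± 0.09, limma adjusted p = 0.00544), Map3k7 (0.27 ± 0.09, limma adjusted p = 0.0386) and Irak2 (0.25 ± 0.08, limma adjusted p = 0.0345), and Myd88 itself (0.33 ± 0.10, limma adjusted p = 0.0283). The median was 0.15. Without untreated KO repeats 1 and 2 the count was 2, and with the epithelium mean as a covariate it was 0. Nfkbia, which encodes an inhibitor of NF-kappaB and was the brightest of the list, gave -0.30 ± 0.15 and was not called. In treated mice 4 were higher in KO than in WT, with Irak1 at 0.49 ± 0.13 (limma adjusted p = 0.0163) and Irak2 at 0.31 ± 0.07 (limma adjusted p = 0.00529), and 3 were lower, with Nfkbia at -0.53 ± 0.13 (limma adjusted p = 0.00816), Myd88, and Tab2 at -0.29 ± 0.06 (limma adjusted p = 0.00246), with 11.6% of all genes called. With arrays centred on their medians 4 were higher and 1 lower, and with the epithelium mean as a covariate none was called. In untreated mice Myd88 was the single gene called in the 4 lists, where 0.11% of all genes were called.

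Interferon-gamma, the cytokine that IL-18 drives, was at the floor on 28 of 32 arrays (Ifng), so no change of its RNA was detectable. Of 17 measured genes of its list of 18, 4 rose and none fell between treated and untreated KO mice, with a list median of 0.26 and 17.1% of all genes called. Cxcl10, a chemokine of T cells, averaged 6.58 in treated KO and 5.12 in untreated KO mice (1.46 ± 0.25, limma adjusted p = 0.00025). Gbp6 differed by 0.96 ± 0.30 (limma adjusted p = 0.0282), and the transcription factor genes Cebpb by 0.88 ± 0.24 (limma adjusted p = 0.0135) and Irf1 by 0.54 ± 0.14 (limma adjusted p = 0.0092). The count was 2 without untreated KO repeats 1 and 2, and 3 with the epithelium mean as a covariate. In treated mice Ifngr2, a receptor chain, was higher (0.38 ± 0.11, limma adjusted p = 0.0228) and Gbp6 lower (-0.87 ± 0.26, limma adjusted p = 0.0301) in KO than in WT mice, 2 of 17 with 11.6% of all genes called. With the epithelium mean as a covariate neither was called. An unadjusted limma p under 0.05 was reached by 10 of 17 in this comparison, against 26% of all genes. The list median was -0.16, with 6 of 17 positive. In untreated mice 1 of 17 lay under that p, against 7.17% of all genes. The KO minus WT median there was -0.19, with 0 of 17 positive. The genes of the list share arrays and may vary together, so these counts and medians are a description with no test.

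Of 10 measured genes of 11 for cytokines and receptors that act beside IL-18, Il15 fell between treated and untreated KO mice, by 0.70 on the log2 scale (limma adjusted p = 0.0296), and 9 were not called, with 17.1% of all genes called. The Il15 call was lost with arrays centred on their medians and with the epithelium mean as a covariate. It averaged 7.21 in treated KO and 7.91 in untreated KO mice. In treated mice Il23a differed by 0.66 ± 0.21, KO minus WT (limma adjusted p = 0.0445), with 11 of 32 arrays at the floor. It was not called on the values as deposited, without untreated KO repeats 1 and 2, or with the epithelium mean as a covariate.

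In WT mice treatment changed none of these 56 genes by limma's adjusted p, where 1.34% of all genes were called. At an unadjusted p under 0.05 there were 2 inflammasome, 0 signalling, 5 interferon-gamma and 3 partner cytokine genes, where 14.9% of all genes lay under it. For the difference of the responses, KO minus WT, 0 of the 56 genes were called by limma, where 0.0275% of all genes were called. With an unadjusted p under 0.05 there were 2 inflammasome, 2 signalling, 2 interferon-gamma and 1 partner cytokine gene, where 11.7% of all genes lay under it. A response particular to KO mice was therefore not shown. The WT medians were 0.08, -0.03, 0.27 and -0.15 for the 4 lists in that order. Cxcl10 gave 0.89 ± 0.25 (limma adjusted p = 0.0876) and Il15 -0.77 ± 0.22 (limma adjusted p = 0.0884). Nlrp1a, Nlrp1b, Nlrc4, Naip1, Irak4, Nfkb1 and Il22 were among the listed genes and were not analysed here.

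**Figure D4:**
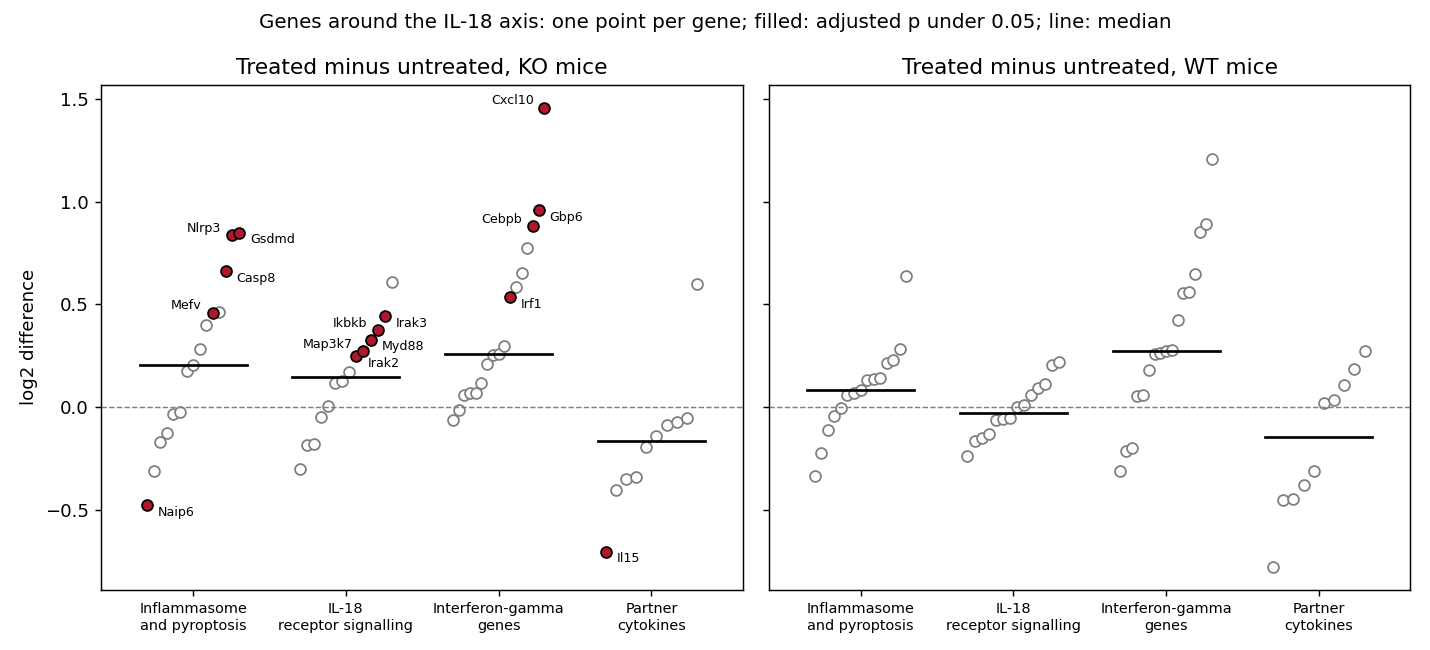
Log2 differences (vertical axis) between treated and untreated mice of the genes of 4 lists, 1 point per gene, in KO (left) and WT mice (right). Filled, named points passed an adjusted p of 0.05, and lines are list medians. In KO mice 4 inflammasome, 5 signalling and 4 interferon-gamma genes rose and Naip6 and Il15 fell; the interferon-gamma medians were 0.26 in KO and 0.27 in WT mice.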

How the data were processed

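RNA of 32 distal colons was measured, 1 Affymetrix array per sample. The authors deposited a table of log2 probe set signals. The program that summarised the probes is not given in the sources used here. The deposited values show a 2% trimmed mean between 150.9 and 151.3 on every array on the linear scale, and signals under 10 raised to 10, which affects 18.7% to 23.9% of probe sets per array. The number of arrays limits the precision.

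Values were quantile normalized here. Of 45101 probe sets, 64 controls were left out of the tests. Platform symbols named 34945 probe sets once, 932 several times and 9160 not at all. A model of the 4 group means was fitted (limma 3.58.1, R 4.3.3; 28 residual and 0.921 prior degrees of freedom), two-sided, with Benjamini-Hochberg adjustment over 45037 probe sets. In the lists a gene was taken by its brightest probe set with 1 symbol. The p-values set a difference of group means against the spread between samples of the same group. In the main fit that spread was pooled over the 4 groups.

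Groups came from sample titles. The members and lists were chosen with earlier results of these data known. Named genes are all members, Myd88, the 3 genes most like each member, and per list and comparison up to 4 called genes and the brightest not called. Pycard, Ifng, Slc26a3, Car1, Muc2, and Cxcl10 and Il15 in WT mice were named outside this rule, after their values were seen. Alternatives covered scaling, 1 probe set per gene, the compared groups alone, array weights, a block for the repeat number, the prior, RNA integrity and tissue markers as covariates, a stricter threshold, and leaving arrays out. The 2 averaged comparisons, the macrophage, lymphocyte and epithelium covariates, and the fit without untreated KO repeats 1 and 2 were added after seeing the data. The fit was tested on simulated data with independent noise and no floor, so that test does not cover signals at the floor.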

Additional observations from a re-analysis of the deposited data

How the results depend on the processing

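No member reversed a called direction. The 2 members called between treated and untreated KO mice became 1 when the KO groups were fitted alone, with the RNA integrity measure as a covariate and at an adjusted p under 0.01. They became 1 also without untreated KO repeats 1 and 2 and with the macrophage or the lymphocyte marker mean as a covariate, and 0 with the epithelium mean, settings chosen after the data were seen. Leaving out each array in turn gave 1 to 2. In WT mice the count was 1 with array weights and 0 otherwise. For the treatment average of both genotypes the count of 2 became 1 with the RNA integrity measure, at an adjusted p under 0.01, without untreated KO repeats 1 and 2, and with each of the 3 marker means, and was 1 to 2 with each array left out.

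Over all probe sets, the count called between treated and untreated KO mice was 6205, with 3175 when the KO groups were fitted alone and 2496 with the epithelium mean. In WT mice it was 419 (222 with the macrophage mean, 1809 with array weights). It was 4189 between treated KO and WT mice (273 with the epithelium mean), 49 between untreated ones (21 with 1 probe set per gene) and 10 for the difference of the responses (0 with the epithelium mean, 150 with array weights). For the averages it was 6704 for treatment (3434 with the macrophage mean) and 1282 for genotype (355 with the epithelium mean, 2161 with the macrophage mean). Called probe sets that were higher made up 44.7% for KO mice, 34.8% on the values as deposited and 61.1% with median centring. Between treated KO and WT mice these shares were 47.4%, 37.8% and 69.6%. With the repeat number as a replicate block, 2 members were called in KO mice and 0 in WT mice, no count of members changed, and Il18 gave 0.37 (limma adjusted p = 0.0171) in KO mice. The numbers did not pair the samples: same-numbered samples of different groups had a median correlation of deviations of 0.009, with 3 of 40 pairs over 0.1. Il18r1 and both Il18rap probe sets lie under the 40th percentile and gave no value where such probe sets were left out, nor did Il18rap 1421291_at with 1 probe set per gene. Dim signals limit what can be said of Il18bp and both receptor chains, and the sources name no program for the probe summary.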

Other observations

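Between arrays of the same group, the members were set against the means of marker lists. Il18r1 gave r = 0.644 with the mean of 15 lymphocyte genes. Il18rap 1456545_at gave r = 0.58 with the lymphocyte mean, 0.561 with the mean of 11 macrophage genes and 0.522 with the mean of 6 smooth muscle genes. The other Il18rap probe set, 1421291_at, gave 0.088, 0.119 and 0.546 with the same lists in that order, and -0.352 with the mean of 6 neutrophil genes. Il18bp gave r = 0.442 with the macrophage, 0.385 with the neutrophil and 0.322 with the lymphocyte mean. Il18 gave -0.185 with the lymphocyte and 0.078 with the macrophage mean, and 0.311 with the epithelium mean. Casp1 gave 0.273 with the epithelium mean and -0.418 with the smooth muscle mean. These are deviations from group means over 32 arrays, which share their scaling, and are given as a description with no test.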
